A study of Mus musculus with 12 samples.

Results

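The 10 genes described here are read as markers of helper and regulatory T cells: Cd4, Cd5, Icos, Ctla4, Il2ra, Foxp3, Ikzf2, Tbx21, Gata3 and Il10. They were chosen by name, with earlier results of these data known. All 10 were found among the 54532 genes of each count file, and all 10 passed the filter on low counts that left 17658 genes for testing. RNA was sequenced from colonic tissue of 12 male C57BL/6 mice, 3 in each of 4 groups, with 1 library a mouse and 15566216 to 19498383 counts a library. The mice had arrived at 6 weeks of age and adapted for 1 week. Con mice are untreated by their labels and received vehicle by gavage in the study's methods, as did DSS mice. DSS mice drank 3% (w/v) dextran sulfate sodium, which injures the colonic epithelium, for 5 days. UA+DSS mice had the same DSS plus 200 mg/kg of ursolic acid (UA), a triterpenoid found in many plants, given by gavage for 7 days from 1 day before DSS, and DSS+UA mice had DSS and the same dose for 4 days starting 3 days after DSS did. These schedules follow the study's methods, and its discussion gives other course lengths. The tissue was unsorted, so every level below is a share of all colonic mRNA, in which fewer cells of a type and less RNA per cell cannot be told apart.

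Helper T cells carry CD4 and are steered into different programs by transcription factors such as T-bet (Tbx21) and GATA3. Regulatory T cells are held in their state by Foxp3. They display the interleukin 2 receptor alpha chain (Il2ra) and the inhibitory receptor CTLA4, and many in the colon also carry ICOS, Helios (Ikzf2) or GATA3 and make the anti-inflammatory cytokine interleukin 10. Several of the 10 genes are not particular to 1 cell type. Innate lymphoid cells express Gata3, natural killer cells Tbx21, macrophages and B cells Il10, and some myeloid cells Cd4, while B-1 cells carry Cd5.

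In DSS colon, 8 of the 10 genes rose compared with Con, from 4.04-fold for Cd4 to 36.8-fold for Il10, while Tbx21 and Ikzf2 were not called. With early UA (UA+DSS), Icos, Ctla4, Il2ra, Foxp3 and Il10 fell compared with DSS, and each of these 5 calls was lost when any of 3 single libraries was left out. None of the 5 was called with a score of position along the colon in the fit. That fit called only 2 genes raised and 1 lowered among all 17658. Position along the colon and early UA cannot be told apart here. With late UA (DSS+UA), no gene of the 10 was called against DSS, and Icos, Ctla4 and Foxp3 rose compared with Con. Levels in CPM (read counts divided by the TMM-scaled size of each library) are given first, by role, and the tests follow.

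**Figure D1:**
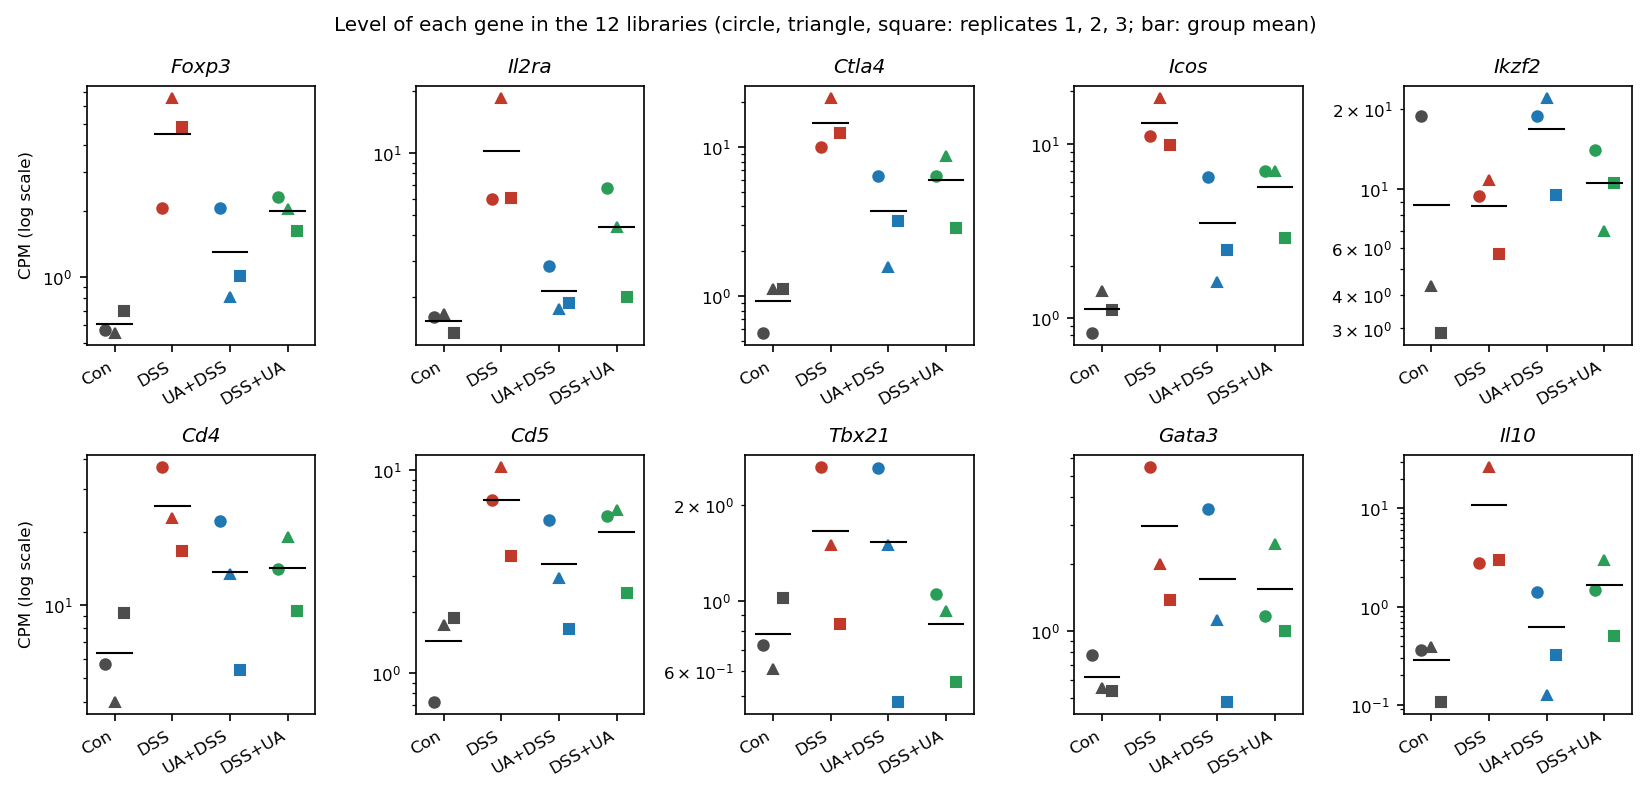
Level of each of the 10 genes in CPM (vertical log axis) in the 3 libraries of each group (horizontal axis), where symbols mark replicate numbers and bars the group means. Foxp3 lay at 0.555 to 0.695 CPM in Con and 2.07 to 6.56 CPM in DSS, while the Con libraries of Ikzf2 ran from 2.89 to 18.9 CPM.

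Foxp3, the transcription factor that holds regulatory T cells in their state (X:7573644-7595245 in GRCm38, ENSMUSG00000039521), was at 0.569, 0.555 and 0.695 CPM in Con 1, 2 and 3. In DSS it was at 2.07, 6.56 and 4.81 CPM. UA+DSS had 2.05, 0.812 and 1.01 CPM, and DSS+UA had 2.32, 2.04 and 1.61 CPM. Con was the lowest group in every library and did not overlap any other group. UA+DSS lay wholly below DSS, by 2.05 against 2.07 CPM at the nearest pair, and DSS+UA overlapped both. These levels rest on few reads, between 10 and 13 counts a library in Con and between 43 and 131 in DSS. Of the exonic length of Foxp3, 18.6% is shared with the RNA gene Flicr on the same strand, which had at most 4 counts in any library, 12.9% with the antisense gene Ccdc22, which was listed at 0 in all 12, 8.15% with antisense Gm36995 (at most 6 counts) and 5.81% with antisense Ppp1r3f, which had up to 31 counts. Whether the authors counted by strand is not given in the sources used here, so the Foxp3 counts carry that uncertainty.

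Il2ra, the alpha chain that gives the interleukin 2 receptor its high affinity (2:11642807-11693193, ENSMUSG00000026770), was at 1.60, 1.66 and 1.34 CPM in Con. DSS 1, 2 and 3 had 6.01, 18.6 and 6.07 CPM, so DSS 2 was about 3 times its group neighbours. UA+DSS had 2.82, 1.75 and 1.86 CPM, and DSS+UA had 6.79, 4.39 and 2 CPM. UA+DSS lay wholly between Con and DSS, and DSS+UA reached into the DSS range.

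Ctla4, which competes with CD28 for its ligands and restrains activation (1:60887000-60915832, ENSMUSG00000026011), was at 0.569, 1.11 and 1.12 CPM in Con and at 9.96, 21.4 and 12.4 CPM in DSS. UA+DSS had 6.42, 1.56 and 3.19 CPM, and DSS+UA had 6.37, 8.66 and 2.88 CPM. Both UA groups lay above every Con library and below every DSS library, and they overlapped each other. Icos, the inducible costimulator of activated, follicular helper and regulatory T cells, lies near Ctla4 on the same chromosome (1:60977927-61000320, ENSMUSG00000026009) and was ordered in the same way. Con had 0.828, 1.44 and 1.12 CPM of Icos and DSS had 11, 18.3 and 9.83 CPM, while UA+DSS had 6.42, 1.62 and 2.45 CPM, and DSS+UA had 7, 6.99 and 2.88 CPM. The ratio of Ctla4 to Icos counts stayed between 0.688 and 1.30 in the 12 libraries.

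Ikzf2, which encodes the Ikaros family factor Helios (1:69531214-69687245, ENSMUSG00000025997), did not share this order. It was at 18.9, 4.33 and 2.89 CPM in Con and at 9.48, 10.8 and 5.71 CPM in DSS. UA+DSS had 18.9, 22.1 and 9.52 CPM, and DSS+UA had 14.1, 6.99 and 10.6 CPM. Con 1 was more than 4 times the other Con libraries and as high as UA+DSS 1, and every pair of groups overlapped.

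RefSeq promoter windows on GRCm38.p6, from 250 bases before the start to 50 bases after it, were at hand for 6 of the 10 genes: Cd5, Ctla4, Foxp3 (with 2 starts), Gata3, Il2ra and Tbx21. The windows of Foxp3 (chrX:7579426-7579725, plus strand), Ctla4 (chr1:60908775-60909074, plus strand) and Il2ra (chr2:11642542-11642841, plus strand) are printed because these 3 genes rose in DSS and fell in UA+DSS together. Capitals mark the core GGAAA that NFAT, a factor switched on by T cell receptor signaling, can bind, here on the opposite strand.
Foxp3 promoter: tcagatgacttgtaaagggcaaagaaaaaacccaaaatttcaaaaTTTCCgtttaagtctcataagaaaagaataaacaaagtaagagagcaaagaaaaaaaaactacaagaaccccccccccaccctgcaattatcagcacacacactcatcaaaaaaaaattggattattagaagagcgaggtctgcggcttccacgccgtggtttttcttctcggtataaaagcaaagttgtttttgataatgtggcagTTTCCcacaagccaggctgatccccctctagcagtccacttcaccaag
Ctla4 promoter: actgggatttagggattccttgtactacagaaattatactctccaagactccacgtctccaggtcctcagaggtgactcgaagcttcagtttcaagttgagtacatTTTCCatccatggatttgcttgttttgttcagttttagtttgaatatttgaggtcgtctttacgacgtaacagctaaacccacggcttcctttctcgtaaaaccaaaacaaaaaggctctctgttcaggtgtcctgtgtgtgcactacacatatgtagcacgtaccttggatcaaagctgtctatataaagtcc
Il2ra promoter: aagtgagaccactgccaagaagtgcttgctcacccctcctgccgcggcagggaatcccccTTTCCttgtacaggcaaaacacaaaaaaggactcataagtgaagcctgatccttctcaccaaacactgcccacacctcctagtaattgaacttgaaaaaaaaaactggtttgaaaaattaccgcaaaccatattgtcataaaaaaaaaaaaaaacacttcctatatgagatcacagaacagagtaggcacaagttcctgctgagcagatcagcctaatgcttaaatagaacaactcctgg
GGAAA was searched on both strands and occurred in every one of the 7 windows, but 61.3% of 32817 RefSeq promoter windows of this length hold it too. The Foxp3 window also held the forkhead core TAAACA (in 13.4% of all windows), GATAA (25.4%) and the TATA box letters TATAAA (13.6%), and the Ctla4 window held TATAAA, none of them overlapping another searched motif. TGANTCA, the AP-1 letters, was in none of the 7 windows and in 7.81% of all. These matches describe the letters only.

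Cd4, the coreceptor of helper and regulatory T cells (6:124864692-124888221, ENSMUSG00000023274), was at 5.69, 3.99 and 9.25 CPM in Con and at 37.0, 22.8 and 16.7 CPM in DSS. UA+DSS had 22.1, 13.4 and 5.37 CPM, and DSS+UA had 14.0, 19.1 and 9.42 CPM. DSS lay above Con in every library, as did DSS+UA, by 9.42 against 9.25 CPM at the nearest pair, while UA+DSS overlapped both Con and DSS. Cd5, a receptor that tunes T cell receptor signals (19:10717116-10739002, ENSMUSG00000024669), was at 0.724, 1.72 and 1.87 CPM in Con and at 7.12, 10.4 and 3.80 CPM in DSS, while UA+DSS had 5.71, 2.94 and 1.65 CPM, and DSS+UA had 5.95, 6.37 and 2.49 CPM. It was ordered like Cd4, with UA+DSS overlapping Con and DSS.

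Tbx21, which encodes the T-bet of type 1 helper cells (11:97098071-97115331, ENSMUSG00000001444), was at 0.724, 0.610 and 1.02 CPM in Con and at 2.65, 1.5 and 0.845 CPM in DSS, while UA+DSS had 2.63, 1.5 and 0.479 CPM, and DSS+UA had 1.05, 0.928 and 0.554 CPM. Every pair of groups overlapped. Gata3, the factor of type 2 helper cells that part of the colonic regulatory T cells also express (2:9857078-9890034, ENSMUSG00000015619), was at 0.776, 0.555 and 0.535 CPM in Con and at 5.48, 2 and 1.37 CPM in DSS, while UA+DSS had 3.53, 1.12 and 0.479 CPM, and DSS+UA had 1.16, 2.47 and 0.998 CPM. Con lay below both DSS and DSS+UA, and DSS 1 was more than 2 times the other DSS libraries.

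Il10, the cytokine by which regulatory T cells and macrophages limit inflammation in the gut (1:131019845-131024974, ENSMUSG00000016529), was at 0.362, 0.388 and 0.107 CPM in Con, or 7, 7 and 2 counts. DSS 2 stood apart with 26.6 CPM (530 counts), while DSS 1 and 3 had 2.79 and 2.96 CPM. UA+DSS 1 had 1.41 CPM and UA+DSS 2 and 3 had only 2 and 6 counts, and DSS+UA had 1.47, 2.97 and 0.499 CPM. DSS and DSS+UA lay above every Con library, and UA+DSS overlapped Con and lay below every DSS library.

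Per kilobase of exon, the scale on which genes can be compared, the group means in Con ran from 0.132 CPM for Foxp3 to 1.57 CPM for Cd4. In DSS they were highest for Il10, at 8.22 CPM per kilobase, then Cd4 at 6.34, Ctla4 at 6.25 and Icos at 3.80, and lowest for Tbx21 at 0.669. The place of Il10 rested on DSS 2, whose level set its mean of 10.8 ± 13.7 CPM (SD, n = 3). The next in order, Cd4 (25.5 ± 10.4 CPM, SD, n = 3) and Ctla4 (14.6 ± 6.03 CPM, SD, n = 3), lay closer to each other per kilobase than the spread of either.

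Libraries differed in ways that touch these values. Neutrophil markers summed to 17231 CPM in DSS 2 against 863 and 943 CPM in DSS 1 and 3, with macrophage and monocyte markers at 3286 against 1127 and 706 CPM, so DSS 2 stood apart, and values that moved by over 1.5 times without it are given both ways. Hox genes, which mark position along the colon, gave a score (mean log2 CPM of 5 genes of the rectal end minus that of 6 genes of the caecal end) of -5.70 to -4.16 in UA+DSS, 0.37 to 3.10 in DSS, 4.11 to 5.06 in DSS+UA and -3.03, -1.83 and 5.53 in Con. UA+DSS, DSS and DSS+UA did not overlap in it. Of the 10 genes, Con 1 stood apart from Con 2 and 3 in Ikzf2 as it did in this score. CD3 chain genes Cd3d, Cd3e and Cd3g, which define T cells, were detected in all 12 libraries and summed to 4.76 to 7.65 CPM in Con. They summed to 29.5 and 35.0 CPM in DSS 1 and 2 but to 7.98 CPM in DSS 3, close to Con 3.

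**Figure D2:**
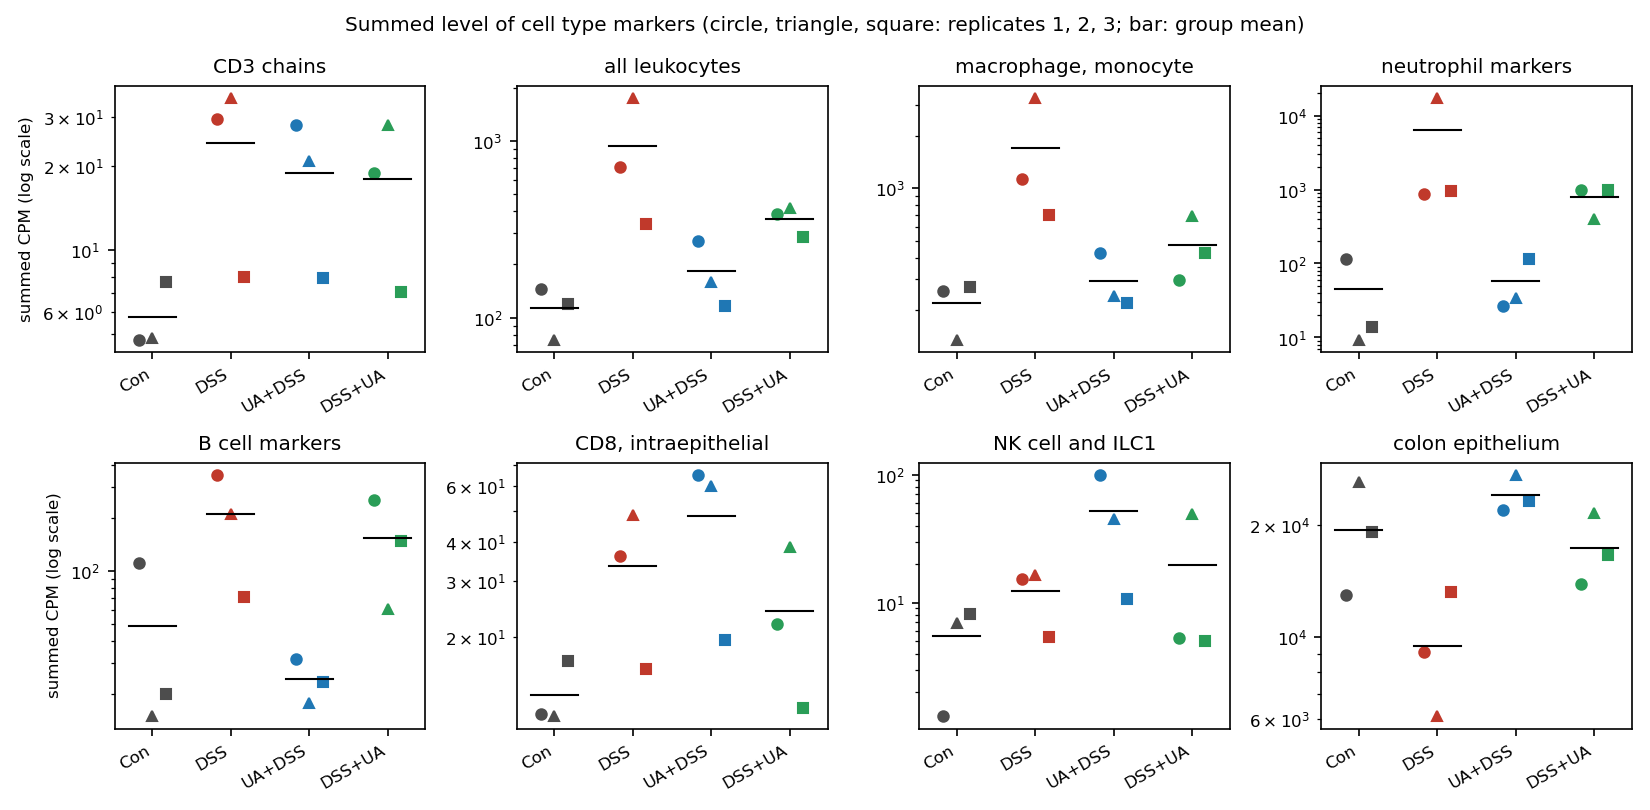
Summed CPM of marker genes (vertical log axes) of the CD3 chains, all leukocytes, macrophages and monocytes, neutrophils, B cells, CD8 and intraepithelial T cells, natural killer cells with type 1 innate lymphoid cells, and colon epithelium, in the 3 libraries of each group, where symbols mark replicate numbers and bars the group means. CD3 chains in DSS 3, at 7.98 CPM, sat near Con, while its macrophage markers, at 706 CPM, were above every Con library.

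The comparison of DSS with Con asked how the 10 genes stood in untreated colitis. Of the 10, 8 rose and none fell, where 13.9% of all tested genes rose, and the same 8 were higher in every DSS library than in any Con library, as were 21.2% of all genes. Their median log2 fold change over all 10 was 2.52, against -0.03 for all tested genes. Foxp3 rose by 2.87 ± 0.50 on the log2 scale (SE, edgeR adjusted p = 0.00375), Ctla4 by 3.96 ± 0.61 (edgeR adjusted p = 0.00275), Icos by 3.52 ± 0.57 (edgeR adjusted p = 0.00303) and Il2ra by 2.73 ± 0.55 (edgeR adjusted p = 0.00625). Cd5 rose by 2.30 ± 0.58 (edgeR adjusted p = 0.0161) and Il10 by 5.20 ± 1.22 (edgeR adjusted p = 0.0122). These 6 kept their call in every alternative that gave a value. Without DSS 2, however, Il10 was at 3.30 (edgeR adjusted p = 0.0307) and Il2ra at 1.97 (edgeR adjusted p = 0.0152). Cd4 rose by 2.02 ± 0.52 (edgeR adjusted p = 0.0169), a call lost without Con 1 (adjusted p = 0.0528), Con 2 (0.0635) or DSS 1 (0.0577). Gata3 rose by 2.24 ± 0.75 (edgeR adjusted p = 0.0467), a call lost in 12 of 21 alternatives. Among single libraries left out, the adjusted p of Gata3 was then 0.0829, 0.121 and 0.109 without Con 1, 2 and 3, 0.196 and 0.0548 without DSS 1 and 2, 0.0576 without UA+DSS 2, and 0.0578 and 0.0593 without DSS+UA 1 and 3, and its log2 fold change was 1.43 without DSS 1. Tbx21 (1.08 ± 0.60, edgeR adjusted p = 0.196) and Ikzf2 (-0.01 ± 0.62, edgeR adjusted p = 0.993) were not called. The sign of Ikzf2 changed with the scaling (0.07 by library size alone), and without Con 1 its value was 1.26 (edgeR adjusted p = 0.069).

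Beside this result, several other marker lists were also higher. All leukocyte markers summed to 74.8 to 146 CPM in Con and 340 to 1750 CPM in DSS, macrophage and monocyte markers to 135 to 271 and 706 to 3286 CPM, and neutrophil markers to 9.26 to 114 and 863 to 17231 CPM. Epithelial markers were lower in DSS 2 and 1 (6082 and 9061 CPM) than in any Con library (12932 to 26291 CPM), and DSS 3 lay within the Con range at 13172 CPM. No marker of the macrophage list was at 0 in any library. The part of these shifts in the higher levels of the 10 genes was not tested.

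**Figure D3:**
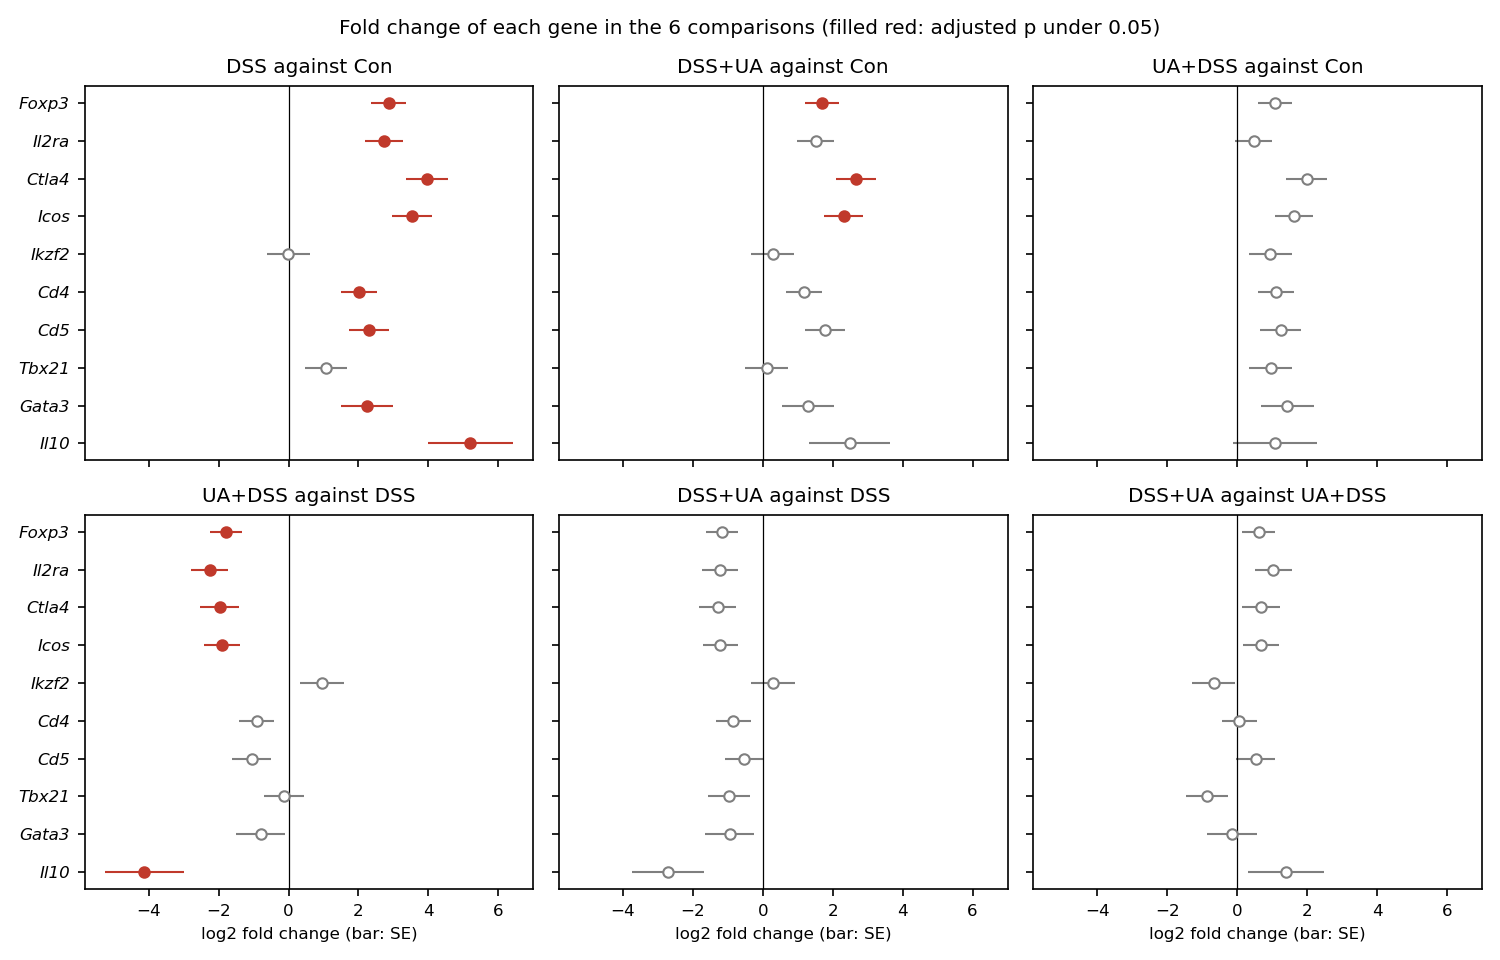
Log2 fold change of each of the 10 genes (vertical axis) in the 6 comparisons (panels), where bars are 1 standard error (SE) and filled red points have an edgeR adjusted p under 0.05. The filled points number 8 in DSS against Con, 5 in UA+DSS against DSS and 3 in DSS+UA against Con, and there is none in the other panels.

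The comparison of UA+DSS with DSS asked how early UA stood against DSS alone. It shares the DSS libraries with the comparison above. Icos, Ctla4, Il2ra, Foxp3 and Il10 fell, 5 of the 10, where 10.5% of tested genes fell, and the same 5 lay below DSS in every library, as did 21.7% of all genes. The median of the 10 was -1.42, against -0.02 for all tested genes. Il2ra fell by 2.25 ± 0.53 on the log2 scale (SE, edgeR adjusted p = 0.0189), Ctla4 by 1.97 ± 0.55 (edgeR adjusted p = 0.0317), Icos by 1.90 ± 0.52 (edgeR adjusted p = 0.0304), Foxp3 by 1.79 ± 0.47 (edgeR adjusted p = 0.0259) and Il10 by 4.12 ± 1.13 (edgeR adjusted p = 0.0316). Cd4 (-0.91 ± 0.50, edgeR adjusted p = 0.223), Cd5 (-1.05 ± 0.56, edgeR adjusted p = 0.204), Gata3 (-0.80 ± 0.70, edgeR adjusted p = 0.458), Tbx21 (-0.13 ± 0.58, edgeR adjusted p = 0.902) and Ikzf2 (0.96 ± 0.62, edgeR adjusted p = 0.303) were not called. All 5 calls were lost without DSS 2 (adjusted p from 0.0589 for Il2ra to 0.12 for Il10), without UA+DSS 2 (0.0863 to 0.119) and without UA+DSS 3 (0.0642 to 0.105), and that of Icos also without DSS 1 (0.0547). Without DSS 2, Il10 was at -2.23 and Il2ra at -1.5, and without UA+DSS 1 Il10 was at -5.53 (edgeR adjusted p = 0.0375), Icos at -2.67 (0.0245) and Ctla4 at -2.61 (0.0296).

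UA+DSS and DSS also differed in position score without overlap. With that score in the fit none of the 5 genes was called, at edgeR adjusted p of 0.143 to 0.249. Among all 17658 tested genes that fit called only 2 raised and 1 lowered, so the loss was not particular to these 5. The log2 fold changes of the 5 genes, -4.11 to -2.13, were as large or larger except for Il10. Position along the colon and early UA cannot be told apart here. B cell markers summed to 70.8 to 351 CPM in DSS and 17.8 to 31.6 CPM in UA+DSS, and macrophage and monocyte markers to 706 to 3286 and 220 to 424 CPM. CD8 and intraepithelial T cell markers overlapped (15.8 to 48.6 and 19.5 to 65.2 CPM), and so did the CD3 chains (7.98 to 35.0 and 7.92 to 28.1 CPM). The part of these differences in the result was not tested.

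With late UA, the comparison of DSS+UA with DSS called none of the 10 genes by edgeR, where 7.54% of tested genes were called. At an unadjusted p under 0.05, 5 of the 10 passed, where 29.9% of tested genes did, and DESeq2 called 1, Il10 (DESeq2 adjusted p = 0.0316), where it called 17.9% of genes. The 5 were Foxp3 (-1.17 ± 0.46, edgeR adjusted p = 0.117), Icos (-1.21 ± 0.51, edgeR adjusted p = 0.139), Ctla4 (-1.29 ± 0.53, edgeR adjusted p = 0.135), Il2ra (-1.22 ± 0.51, edgeR adjusted p = 0.14) and Il10 (-2.71 ± 1.04, edgeR adjusted p = 0.114). Ctla4 and Icos lay below DSS in every library, 2 of the 10, where 16.4% of all genes did. The median of the 10 was -1.07, against 0.02 for all tested genes. Without DSS 2, Il10 was at -0.79 and Il2ra at -0.44. The groups also differed in position score without overlap, and with the score in the fit the 5 ran from -2.72 for Il10 to -0.93 for Ctla4, at edgeR adjusted p of 0.211 to 0.346, so position and late UA cannot be told apart either. Scaling by library size alone moved the median of all genes by -0.13 in this comparison and left 12.2% rather than 33.7% of the calls as raised.

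Against Con, DSS+UA had 3 genes raised of the 10, where 9.13% of tested genes rose, and 8 of the 10 lay above every Con library, as did 19.8% of all genes. The median of the 10 was 1.61, against -0.03 for all tested genes. Ctla4 rose by 2.67 ± 0.58 (SE, edgeR adjusted p = 0.0136), a call kept in all alternatives, and Icos by 2.31 ± 0.55 (edgeR adjusted p = 0.018), a call lost without Con 3 (0.0552). Foxp3 rose by 1.70 ± 0.49 (edgeR adjusted p = 0.0358), but this call was lost without any 1 of the Con libraries (adjusted p = 0.0721, 0.0903 and 0.0761 without Con 1, 2 and 3) or of the DSS+UA libraries (0.0849, 0.0687 and 0.0693 without DSS+UA 1, 2 and 3), with the position score (0.0763), with the replicate block (0.0596) and by limma-voom (0.0753). Cd5 (1.78 ± 0.58, edgeR adjusted p = 0.0539) and Il2ra (1.51 ± 0.53, edgeR adjusted p = 0.0682) were just outside the threshold. Without DSS 2 both passed (adjusted p = 0.0425 and 0.0272), as Cd5 did without DSS 3 (0.0474), and without Con 1 Ikzf2 did (1.55, edgeR adjusted p = 0.0406).

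Against Con, UA+DSS had none of the 10 genes called by edgeR, where 0.00566% of tested genes (1 gene) were. At an unadjusted p under 0.05, 2 of the 10 passed, where 12.1% of tested genes did, Ctla4 (1.99 ± 0.58, edgeR adjusted p = 0.272) and Icos (1.62 ± 0.54, edgeR adjusted p = 0.312), and DESeq2 called 1, Ctla4 (DESeq2 adjusted p = 0.0346), where it called 2.15% of genes. All 10 log2 fold changes were above 0, with a median of 1.09 against -0.01 for all tested genes, and Icos, Ctla4, Il2ra and Foxp3 lay above every Con library, as did 9.62% of all genes.

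Early and late UA, compared directly, had no call among the 10, at either the adjusted or an unadjusted p under 0.05 and by DESeq2 or limma-voom, where these called 16.8%, 33.8%, 24.9% and 16.2% of tested genes. All 10 genes overlapped between DSS+UA and UA+DSS. The difference was 0.62 ± 0.47 (SE) for Foxp3 (edgeR adjusted p = 0.371) and 1.04 ± 0.52 for Il2ra (edgeR adjusted p = 0.19), and it ran from -0.85 ± 0.60 for Tbx21 (edgeR adjusted p = 0.346) to 1.41 ± 1.09 for Il10 (edgeR adjusted p = 0.385). So Il2ra, with a call in UA+DSS against DSS and none in DSS+UA against DSS, was not shown to differ between early and late UA. The groups lay at opposite ends of the position score, and with it in the fit Ikzf2 moved from -0.67 to -3.08 (edgeR adjusted p = 0.286), Cd5 from 0.53 to 1.91 (0.495), Ctla4 from 0.68 to 1.80 (0.522) and Icos from 0.69 to 1.44 (0.598), with position and the time of UA not to be told apart.

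Set against the CD3 chains, the 10 genes parted. Counts per 100 counts of Cd3d, Cd3e and Cd3g were higher in every DSS library than in any Con library for Icos, Ctla4 and Il10, 3 of the 10, where 1.66% of tested genes were. Ctla4 was at 12.0, 23.0 and 14.7 per 100 in Con, 33.8, 61.1 and 155 in DSS, 22.8, 7.51 and 40.3 in UA+DSS and 33.9, 30.8 and 40.9 in DSS+UA. Icos was at 17.4, 29.9 and 14.7 per 100 in Con and 37.2, 52.4 and 123 in DSS. Il10 was at 7.61, 8.05 and 1.40 per 100 in Con and 9.46, 75.8 and 37.1 in DSS, so DSS 1 was just above Con 2. The same 3 were higher with the T cell receptor constant genes Trac, Trbc1 and Trbc2 as the denominator, where 1.79% of genes were.

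Foxp3 did not separate in this way. It was at 12.0, 11.5 and 9.09 per 100 CD3 counts in Con, 7.01, 18.7 and 60.3 in DSS, 7.31, 3.90 and 12.8 in UA+DSS and 12.3, 7.27 and 22.8 in DSS+UA. DSS 1 lay below all 3 Con libraries and DSS 3 far above them, on 151 CD3 counts against 613 and 699 in DSS 1 and 2. The DSS mean was 2.64 times the Con mean, and 1.19 times without DSS 3. Cd4 per 100 CD3 counts was at 120, 82.8 and 121 in Con and 126, 65.2 and 210 in DSS, which overlapped. Tbx21 went the other way, at 15.2, 12.6 and 13.3 per 100 in Con and 8.97, 4.29 and 10.6 in DSS, below Con in every library, as were 48.1% of all genes. Between UA+DSS and DSS, Icos, Il10 and Cd5 per CD3 count were lower in every UA+DSS library, 3 of the 10, where 3.40% of genes were, and with the receptor constant genes Icos and Il10 remained so, where 2.49% of genes were. Ctla4 overlapped there with either denominator. Between DSS+UA and DSS, all 10 overlapped per CD3 count. With the receptor constant genes, Icos, Ctla4 and Il10 were lower in every DSS+UA library, where 2.42% of genes were.

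**Figure D4:**
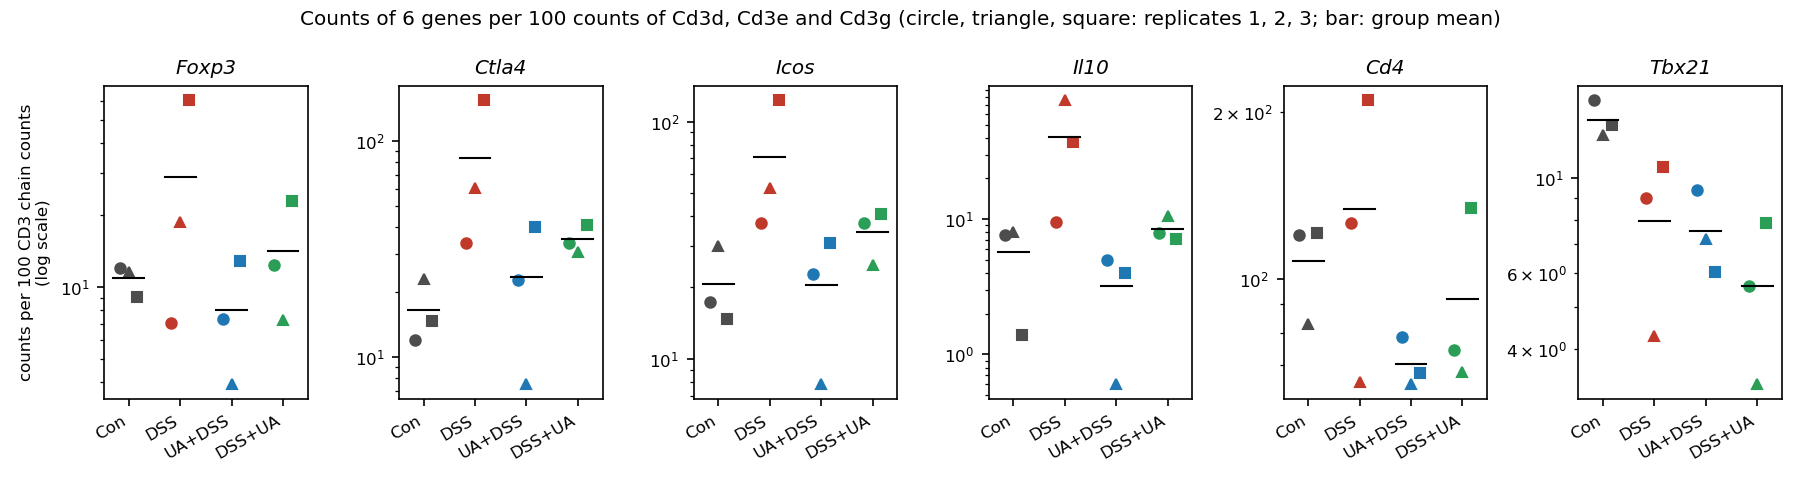
Counts of 6 genes per 100 summed counts of Cd3d, Cd3e and Cd3g (vertical log axes) in the 3 libraries of each group (horizontal axis), where symbols mark replicate numbers and bars the group means. Ctla4 in DSS, at 33.8 to 155, sat above Con at 12.0 to 23.0, Foxp3 overlapped, and Tbx21 in DSS, at 4.29 to 10.6, sat below Con at 12.6 to 15.2.

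The 10 genes varied among mice of a group in different ways. After the group means of log2 CPM were taken away, Pearson's r over the 12 libraries was 0.948 for Icos with Ctla4 and 0.850 for Il2ra with Il10. It was 0.947 for Cd4 with Tbx21 and 0.844 for Cd4 with Gata3, but 0.130 for Cd4 with Foxp3 and 0.002 for Foxp3 with Gata3. These values are descriptions over 12 libraries of 4 groups and carry no p. Among the DSS mice, Cd4, Tbx21 and Gata3 were highest in DSS 1, and Foxp3, Il2ra, Ctla4, Icos, Cd5, Il10 and Ikzf2 in DSS 2. DSS 2 also stood apart in neutrophil markers, and no r without it is given.

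The other genes of these T cells were taken from 7 lists, of which 76 of 82 genes were tested. The lists were written from general knowledge, but with earlier results of these data known. In DSS against Con, 50 of the 76 rose and none fell, where 13.9% of all tested genes rose and 12.6% fell. Their median was 2.13 against -0.03 for all tested genes, and 33 rose without DSS 2 and 28 without Con 2. Over all tested genes 2459 rose, with 1912 without DSS 2 and 1486 without Con 2. In UA+DSS against DSS, 24 fell and 1 rose, where 10.5% of all tested genes fell and 8.21% rose. The median was -1.16 against -0.02. The number that fell was 14 without DSS 2, 3 without UA+DSS 2, 10 without UA+DSS 3 and 0 with the position score in the fit. Over all tested genes 1850 fell, and in the same 4 settings, in that order, 1110, 91, 743 and 1 did. In DSS+UA against DSS, 10 fell, with a median of -0.77 against 0.02, a number that was 6 without DSS 2 or DSS+UA 1, 1 after DSS+UA 2 was left out, 0 after DSS+UA 3 was, 3 with the position score, 5 with the replicate block and 23 by DESeq2. For UA+DSS against DSS, then, no call of the genes named below held with the position score.

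Of the 7 T cell receptor and CD3 chain genes, 6 rose, including Cd247 (2.35 ± 0.48, edgeR adjusted p = 0.00666), Cd3d (2.65 ± 0.73, edgeR adjusted p = 0.0221) and Cd3e (2.35 ± 0.66, edgeR adjusted p = 0.0248), while Cd3g was at 1.53 ± 0.64 (edgeR adjusted p = 0.0985). Without DSS 2, Cd247 alone of the 7 was called, the adjusted p of Cd3d being 0.0569 and that of Cd3e 0.0752. The call of Cd3d was also lost without Con 1 (0.0709), Con 2 (0.0661) or DSS 1 (0.0584), and that of Cd3e without Con 1 (0.0733), Con 2 (0.0848) or DSS 1 (0.0584). None of the 7 was called in UA+DSS against DSS (median -0.89) or in DSS+UA against DSS (median -0.39), where Icos and Ctla4 had values of -1.90 and -1.97, and -1.21 and -1.29. The difference between those genes and the receptor chains was not tested other than by the ratios above. In those ratios Ctla4 overlapped between UA+DSS and DSS, and the result for late UA depended on the denominator.

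On the surface of T cells and next to the receptor, 10 of 12 genes rose in DSS (4 without DSS 2), and Thy1 (-1.22 ± 0.25, edgeR adjusted p = 0.0135) and Cd2 (-1.65 ± 0.40, edgeR adjusted p = 0.0199) fell in UA+DSS against DSS. The call of Thy1 was lost without UA+DSS 2 (0.0676), and that of Cd2 without DSS 1 (0.0604), DSS 2 (0.0546), UA+DSS 2 (0.0828) or UA+DSS 3 (0.0694). Thy1 did not follow the CD3 chains among the DSS mice. It was at 41.9, 36.8 and 35.9 CPM in DSS 1, 2 and 3, where those chains summed to 29.5, 35 and 7.98 CPM. Whether T cells or other cells gave the Thy1 transcripts was not tested.

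Of 16 genes linked to regulatory T cells, 10 rose in DSS (7 without DSS 2), 6 fell in UA+DSS against DSS (3 without DSS 2) and 4 in DSS+UA against DSS. Tnfrsf9 (4-1BB, a costimulatory receptor of activated T cells) rose by 3.97 ± 0.49 in DSS against Con (edgeR adjusted p = 0.00133) and fell by 2.72 ± 0.45 in UA+DSS against DSS (edgeR adjusted p = 0.00935) and by 1.65 ± 0.43 in DSS+UA against DSS (edgeR adjusted p = 0.0446). The last call was lost when any 1 of 8 libraries was left out, Con 2 (0.0569), Con 3 (0.054), DSS 2 (0.149), UA+DSS 1 (0.0512), UA+DSS 3 (0.0674), DSS+UA 1 (0.0815), DSS+UA 2 (0.112) or DSS+UA 3 (0.151), and with the position score (0.101). Lrrc32, which encodes GARP, the carrier of latent TGF-beta, rose by 1.87 ± 0.33 in DSS (edgeR adjusted p = 0.00414) and fell by 1.59 ± 0.33 in UA+DSS (edgeR adjusted p = 0.0137) and fell by 1.72 ± 0.33 in DSS+UA (edgeR adjusted p = 0.0208), calls lost without UA+DSS 2 (0.0718) and, for late UA, without DSS+UA 2 (0.0739) or 3 (0.0796) or with the position score (0.0612). Entpd1, the ectoenzyme CD39, rose by 3.03 ± 0.53 in DSS (edgeR adjusted p = 0.00429) and fell by 2.68 ± 0.53 in UA+DSS (edgeR adjusted p = 0.0127), a call lost without UA+DSS 2 (0.0661). Without DSS 2 these values were 1.97 and -1.62. Lrrc32 and Entpd1 are also expressed by endothelial cells, platelets or myeloid cells. Ccr8, a chemokine receptor of tissue regulatory T cells, rose by 2.50 ± 0.71 in DSS (edgeR adjusted p = 0.0248) on only 7 counts in all of Con and 44 in all of DSS, a call lost without Con 1 (0.0519), Con 2 (0.0903), Con 3 (0.0534), DSS 1 (0.0623) or DSS 2 (0.0572).

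All 6 genes of naive and recirculating T cells fell in UA+DSS against DSS, and 4 did without DSS 2. Of the 6, 5 had risen in DSS against Con. Ccr7, the receptor that guides cells into lymphoid tissue, fell by 3.78 ± 0.71 (edgeR adjusted p = 0.0113), a call lost without UA+DSS 2 (0.0562). S1pr1, the receptor for exit from it, fell by 1.79 ± 0.28 (edgeR adjusted p = 0.00812). S1pr1 is also carried by endothelium, and Ccr7 by dendritic cells.

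Among 13 helper T cell transcription factors, 7 rose in DSS, led by Runx3 (3.14 ± 0.48, edgeR adjusted p = 0.00275), Batf (4.21 ± 0.75, edgeR adjusted p = 0.00429, and 2.79 without DSS 2) and Stat3 (1.5 ± 0.16, edgeR adjusted p = 8.68e-04). Of 3 that fell in DSS+UA against DSS, the strongest by p were Rora (-1.70 ± 0.28, edgeR adjusted p = 0.0134) and Maf (-1.60 ± 0.27, edgeR adjusted p = 0.0134). Without DSS+UA 3 neither Rora (0.0928) nor Maf (0.0929) was called, and without DSS+UA 2 Maf was not (0.05). In DSS+UA the means of Rora and Maf, 5.03 and 17.4 CPM, were below those of Con, 10.2 and 23.2 CPM. Stat3 was at 98.3 to 118 CPM in Con, where the CD3 chains summed to 4.76 to 7.65 CPM. Which cells these transcripts came from was not tested.

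Helper cytokine transcripts were scarce. Of 10 genes of this list, 6 passed the filter. Il4 had 37 counts in all of Con and 42 in all of DSS, Ifng 13 and 12, Il2 6 and 5, Il5 5 and 1, and Il13 2 and 2. Il4 and Ifng thus had nearly the same counts in both groups, and for Il2, Il5 and Il13 the depth allowed little to be seen. Il21, a cytokine of follicular helper and type 17 cells, rose by 3.31 ± 0.76 in DSS (edgeR adjusted p = 0.0107) and fell by 2.88 ± 0.74 in UA+DSS against DSS (edgeR adjusted p = 0.0241), on 4 counts in all of Con, 46 in DSS and 5 in UA+DSS. The second call was lost without DSS 2 (0.0794), UA+DSS 1 (0.0588), UA+DSS 2 (0.106) or UA+DSS 3 (0.0763). Il22, also called in DSS (edgeR adjusted p = 0.0334), had 0 counts in all of Con and 224 in all of DSS, and no fold is given against a group at 0. Of the 224 counts, 201 were in DSS 1, 21 in DSS 2 and 2 in DSS 3. The call of Il22 was lost without any 1 of the Con libraries (0.0715, 0.0793 and 0.0689 without Con 1, 2 and 3), DSS 1 (0.084) or DSS+UA 3 (0.0522).

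Of the partners of these receptors, 16 of 18 were tested, 9 rose in DSS and 6 fell in UA+DSS against DSS (3 without DSS 2). Cd80, a ligand of CTLA4 and CD28 on antigen-presenting cells, rose by 4.04 ± 0.75 in DSS (edgeR adjusted p = 0.00493) and fell to 0.0626 of its DSS level in UA+DSS (edgeR adjusted p = 0.0113), a call lost without UA+DSS 2 (0.0589). Without DSS 2 its rise was 2.68 and its level in UA+DSS 0.16 of that in DSS. Cd86, the other ligand, rose by 1.95 ± 0.46 (edgeR adjusted p = 0.0117) and fell by 1.56 ± 0.45 (edgeR adjusted p = 0.036), a call lost without DSS 1 (0.0903), DSS 2 (0.113), UA+DSS 2 (0.133) or UA+DSS 3 (0.115). The interleukin 2 receptor chains Il2rb and Il2rg rose in DSS by 2.68 ± 0.52 (edgeR adjusted p = 0.00577) and 2.15 ± 0.39 (edgeR adjusted p = 0.00429), beside Il2ra at 2.73, while the transcript of their ligand Il2 stayed at no more than 6 counts a group. Il10ra, the ligand-binding chain of the interleukin 10 receptor, rose 7.99-fold in DSS (edgeR adjusted p = 0.00997), or 3.91-fold without DSS 2, and fell by 2.55 ± 0.65 in UA+DSS (edgeR adjusted p = 0.0248), a call lost without DSS 2 (-1.53, 0.0715), UA+DSS 2 (0.105) or UA+DSS 3 (0.0865). Tgfb1, which supports the induction of Foxp3 in peripheral T cells, rose by 2.11 ± 0.28 in DSS (edgeR adjusted p = 0.00167) and fell by 1.97 ± 0.28 in UA+DSS (edgeR adjusted p = 0.00725).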

How the data were processed

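RNA from 12 mouse colons was sequenced by the authors and mapped to GRCm38. The deposited files hold whole-number read counts per gene, per the labels and methods from HISAT2, with FastQC and Cuffdiff also named in the submitters' processing notes. For tool versions, strand setting and annotation release, nothing is given in the sources used here. In each file there are 54532 Ensembl genes, and 123 without a name in the GRCm38 annotation (0.0297% of counts) were tested but not named.

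edgeR 4.0.16 in R 4.3.3 kept 17658 genes (filterByExpr), scaled by TMM (factors 0.871 to 1.09) and fitted 1 robust quasi-likelihood model to all 12 libraries. Its p-values were adjusted by Benjamini-Hochberg over the 17658 genes and called under 0.05. Scripts were tested on simulated data. Alternatives were DESeq2 1.42.0, limma-voom (limma 3.58.1), other scalings and filters, 2 groups only, a replicate block, the Hox position score as a covariate and leaving out each library. CPM per library uses the TMM factors. The 10 genes, the lists and the rule for named genes (all 10, and of each list the called genes with the smallest p, CD3 chains, marker sums and genes most like Foxp3, Il10 and Gata3) were chosen with earlier results of these data known. Genes named beside them for their role (Cd28, Ccr8, Cd86, Il2rb and the scarce cytokines) were chosen after their values were seen. Of 189 listed genes, 188 were matched. Values of 2 listed genes are not reported here. With 3 mice a group, precision is limited, and intervals cover these mice only.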

Additional observations from a re-analysis of the deposited data

How the results depend on the processing

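For the 6 comparisons and 10 genes, direction and side of the threshold held in 1210 of the recomputed values, with 53 calls lost, 8 gained and 29 signs changed. The number of genes called lowered in UA+DSS against DSS (5) was 1 with the 2 groups only, 0 with the position score in the fit and 0 to 5 when single libraries were left out. Over all tested genes the number lowered (1850) was 1065 with the 2 groups only and 1 with the position score. It was 91 to 2186 when single libraries were left out. The number raised in DSS+UA against Con (3) was 5 by DESeq2 and 1 to 5 when single libraries were left out. DESeq2 also called 1 lowered in DSS+UA against DSS and 1 raised in UA+DSS against Con, against 0 in each by edgeR.

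Values that changed sign had no call in the report. For Ikzf2 in DSS against Con (-0.01) they were 0.07 by library size, 0.01 without a filter, 0.06 with the position score and 0.42 by limma-voom. With the position score, Ikzf2 was at -0.42 in DSS+UA against DSS and at -0.36 against Con, Tbx21 at 0.01 and Gata3 at 0.05 in UA+DSS against DSS, and Cd4 at -0.02 in DSS+UA against UA+DSS, where Gata3 was at 0.21 by limma-voom. When single libraries were left out, Ikzf2 ran from -0.44 to 1.26 in DSS against Con and from -0.14 to 1.55 in DSS+UA against Con, Tbx21 from -0.76 to 0.37 in UA+DSS against DSS and from -0.07 to 0.35 in DSS+UA against Con, Gata3 from -1.88 to 0.00 in UA+DSS against DSS and from -0.63 to 0.95 in DSS+UA against UA+DSS, Il10 from -0.32 to 1.56 in UA+DSS against Con and Cd4 from -0.31 to 0.59 in DSS+UA against UA+DSS. The cause was not tested.

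Samples with the same number had correlations of -0.216 to 0.187 in their deviations from the group means, so the numbers were not taken to pair the mice. With the replicate block, Ikzf2 in DSS against Con was at 0.29, Tbx21 in DSS+UA against Con was at -0.03 and Gata3 in DSS+UA against UA+DSS at 0.21, and the adjusted p of Ctla4 in UA+DSS against DSS was 0.0532 and that of Foxp3 in DSS+UA against Con 0.0596.

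With at least 10 counts in every sample, Tbx21, Gata3 and Il10 gave no value. Depth limits Il10, Foxp3, Gata3 and Tbx21, at 2 to 7, 10 to 13, 10 to 15 and 11 to 19 counts a library in Con.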

Other observations

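Ctla4 rose in DSS, as given above. Cd28, which competes with it for the same ligands, was at 4.79 ± 2.29 CPM in Con and 8.42 ± 0.889 CPM in DSS (SD, n = 3) without overlap, and was not called (log2 fold change 0.81 ± 0.50, edgeR adjusted p = 0.244). The ratio of Ctla4 to Cd28 counts was 0.234, 0.225 and 0.160 in Con and 1.20, 2.28 and 1.62 in DSS. It was 0.645, 0.309 and 1.28 in UA+DSS and 1.39, 1.61 and 1.16 in DSS+UA. All 9 libraries of mice given DSS lay above the Con libraries, and UA+DSS 1 and 2 lay below the other 7. This ratio was looked at after the values of both genes were known and was not tested.

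The genes most like Foxp3 over the 12 libraries by Pearson's r of log2 CPM, as a description of libraries that fall into groups, were Tnfrsf9 (0.955), Yaf2 (0.951), Emb (0.947) and Slc15a3 (0.945). For Il10 they were Ncf4 (0.958), Sbno2 (0.951), Rap1b (0.948) and Adssl1 (0.947), and for Gata3 Unc93b1 (0.947), Tmem229b (0.936), Gimap7 (0.924) and Sh2d1b1 (0.909). After the group means were taken away, r was 0.701 to 0.817 for those of Foxp3, 0.837 to 0.882 for Il10 and 0.848 to 0.917 for Gata3.

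DSS 3 had CD3 chains at 7.98 CPM, near Con 3 at 7.65 CPM, and Foxp3 at 4.81 CPM against 0.695 CPM in Con 3. The ratio of Foxp3 to Cd4 counts was 0.287 in both DSS 2 and DSS 3 but 0.0558 in DSS 1, below all 3 Con libraries (0.0751 to 0.139). Markers of natural killer cells and type 1 innate lymphoid cells, which also use Tbx21, were highest in UA+DSS 1 (a sum of 100 CPM), DSS+UA 2 (48.9 CPM) and UA+DSS 2 (45.3 CPM). UA+DSS 3 had 10.6 CPM, and DSS+UA 1 and 3 had 5.32 and 4.99 CPM, against 1.29 to 8.18 CPM in Con and 5.39 to 16.3 CPM in DSS. Most of the sum was Gzma, which encodes granzyme A, at 96.9 of the 100 CPM in UA+DSS 1.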
